A study of Mus musculus with 6 samples.

Results

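The proteasome genes outside the immunoproteasome were examined in bone marrow stromal cells (BMSCs) of aged and young mice. Members were the genes whose symbol in the platform annotation starts with Psma to Psmg and a digit, without Psmb8, Psmb9 and Psmb10, and that have a probe set listed for that gene alone. This gave 47 of 30702 measured genes, each with 1 probe set. Of these, 43 encode a part, an activator, an inhibitor or an assembly chaperone of the proteasome. The other 4 carry the symbol only: the pseudogenes Psmb5-ps and Psmb6-ps, Psmc3ip, which acts in meiotic recombination, and Psme3ip1, named as a partner of the Psme3 protein. Another 4 probe sets list a matching symbol beside other genes and were not used, so that Psmb5 and Psme2 were not analysed here.

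The study held 6 arrays, 3 of cells from mice of 18 months and 3 of cells from mice of 3 months. The cells were freed from crushed femurs with collagenase, selected for the surface proteins Sca-1 and CD29 and against CD45 and CD11b, and grown past the first passage before RNA was taken, so the values are those of cultured cells. Strain, sex and treatment are not in the labels, which number the arrays of an age as biological replicates and do not say if they came from separate animals. P-values therefore measure the spread between these arrays, which may in part be technical. With 3 arrays per age their number limits the precision, and the smallest two-sided p of an exact permutation test on 1 gene is 0.1. The labels do not record when cells were cultured or arrays hybridised, and a batch that follows age cannot be told apart from it.

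The proteasome is the barrel-shaped protease that degrades proteins tagged with ubiquitin. Its 20S core has outer rings of alpha subunits (Psma), which gate the entrance, and inner rings of beta subunits (Psmb), some of which carry the cutting sites. The 19S cap has a ring of ATPases (Psmc) that unfold the substrate, and other subunits (Psmd) that bind ubiquitin chains, remove them and hold the cap together. Activators (Psme) can sit on the core in place of the cap, and dedicated chaperones (Psmg and a few Psmd genes) help to assemble core and cap. Interferons induce alternative beta subunits, Psmb8, Psmb9 and Psmb10, and the activator genes Psme1 and Psme2. NFE2L1, a transcription factor, binds antioxidant response elements in promoters of proteasome genes and raises their transcription when proteasome activity falls.

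The promoter windows of the 3 activator genes are shown because these genes hold the highest and the lowest difference of all members, and that of Psmb6, a cutting subunit, because a motif lies beside its start site. Windows are from RefSeq, assembly GRCm38.p6, and run from 250 bases before to 50 bases after the annotated start, written 5′ to 3′ on the gene's strand. Capitals mark matches on either strand to 1 of 4 motifs: the antioxidant response element TGACNNNGC, the CCAAT box CCAAT, the interferon-stimulated element (GAAA, any 2 bases, GAAA) and the gamma-activated site TTCNNNGAA.
Psme4 (chr11:30771525-30771824, plus strand): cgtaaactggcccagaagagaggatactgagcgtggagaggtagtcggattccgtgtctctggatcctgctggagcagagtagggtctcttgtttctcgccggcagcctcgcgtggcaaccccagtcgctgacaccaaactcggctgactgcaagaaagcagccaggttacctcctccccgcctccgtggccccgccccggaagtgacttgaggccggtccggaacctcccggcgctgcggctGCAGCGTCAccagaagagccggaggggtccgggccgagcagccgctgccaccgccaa
Psme1 (chr14:55578244-55578543, plus strand): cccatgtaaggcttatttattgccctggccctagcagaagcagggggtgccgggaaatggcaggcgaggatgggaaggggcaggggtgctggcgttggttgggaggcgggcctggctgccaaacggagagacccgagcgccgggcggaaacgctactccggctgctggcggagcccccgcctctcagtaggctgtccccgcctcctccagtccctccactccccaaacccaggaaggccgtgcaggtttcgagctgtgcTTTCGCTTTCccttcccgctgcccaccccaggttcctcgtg
Psme3 (chr11:101315963-101316262, plus strand): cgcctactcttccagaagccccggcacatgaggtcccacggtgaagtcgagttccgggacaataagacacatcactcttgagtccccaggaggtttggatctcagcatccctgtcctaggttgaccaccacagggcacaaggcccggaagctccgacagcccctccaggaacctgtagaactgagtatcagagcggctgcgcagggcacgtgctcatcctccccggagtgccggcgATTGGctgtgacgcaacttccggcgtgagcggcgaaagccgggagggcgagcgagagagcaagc
Psmb6 (chr11:70525107-70525406, plus strand): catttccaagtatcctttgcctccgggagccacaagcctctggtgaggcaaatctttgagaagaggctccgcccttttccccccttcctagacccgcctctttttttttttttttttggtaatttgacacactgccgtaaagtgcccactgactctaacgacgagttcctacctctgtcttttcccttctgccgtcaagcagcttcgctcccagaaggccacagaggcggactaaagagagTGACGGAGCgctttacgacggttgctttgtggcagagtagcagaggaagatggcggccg
Psme4 held an antioxidant response element that spans its start site, from position -7 to 2. Psme1 held an interferon-stimulated element just after its start, at positions 10 to 19. Psme3 held a CCAAT box from -14 to -10, and Psmb6 an antioxidant response element from -9 to -1. Each is a match of letters in this window, not a binding site.

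Values are on the log2 scale, as the authors deposited them, and differences are 18 months minus 3 months. Across genes, which are not independent replicates, Pearson's r was 0.9986 to 0.999 between 18-month arrays and 0.995 to 0.9977 between 3-month arrays. Between ages r was 0.9757 to 0.9778. The sort marker gene Itgb1 (CD29) was bright at 11.76 in 18-month and 11.86 in 3-month cells, a fall of 0.10 (limma, adjusted p = 0.025). Ly6a (Sca-1) was not among the measured genes. Ptprc (CD45) and Itgam (CD11b) lay within the range of the negative control probe sets, whose 95th percentile was 7.61. Of 9 measured stromal markers 5 lay above that range: Pdgfrb, Vcam1, Col1a1 and Col1a2, which rose, and Dcn, which did not pass. Within that range lay Nt5e, which fell, Thy1 and Eng, which did not pass, and Lum, which was too dim to be tested. The summed unlogged values of the 9 were 22353.2 to 22890.2 in 18-month arrays and 14750.4 to 15395.3 in 3-month arrays. No mean of the 29 measured markers of blood, endothelial and erythroid cells exceeded that range at either age. Of these markers 4 rose (Cd14, Ly6g, Nkg7 and Kdr) and 1 fell (Tek), where 18.4% of all genes tested rose and 22.1% fell. Adgre1, Lyz2, S100a8, S100a9, Ms4a1, Cd3g, Cd4, Klrb1c, Pecam1 and Emcn were too dim to be tested. The summed unlogged values of the 29 were 1681.9 to 1697.9 in 18-month arrays and 1515.6 to 1625.2 in 3-month arrays. The part of either marker list in the results below was not tested. In bulk RNA, fewer cells of a type and less RNA per cell cannot be told apart.

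Most proteasome genes differed little between the ages, and 2 of the activators ran in opposite directions. Psme1 was 1.63-fold higher and Psme4 1.72-fold lower in 18-month cells, and these were the 2 called members that changed by at least 1.5-fold. Of the 46 members tested, Psma8 having been too dim, 5 rose and 15 fell (limma, Benjamini-Hochberg adjusted p under 0.05 over all genes). Among all 20187 genes tested, 40.6% passed, 18.4% higher and 22.1% lower. Among the 9871 genes with a mean above the negative control range, where 41 of the 46 members lie, 59.0% passed, 22.9% higher and 36.1% lower. Over all 46 members, the 32.6% lower thus lay above the share of all genes, and the 10.9% higher lay below it. All 15 members that fell and all 5 that rose were among the 41 above the negative control range. Of those 41, the share lower was close to the 36.1% of bright genes, and the share higher lay below their 22.9%.

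The median difference of the members was -0.04 on the log2 scale, against 0.01 for all genes tested and -0.04 for the genes above the negative control range. Of the 46 members 42 differed by less than 0.3 on the log2 scale, as did 80.7% of all genes tested. The groups did not overlap in 19 members that were lower and 9 that were higher in 18-month arrays; among all genes 26.9% were lower and 24.4% higher without overlap. When the difference was tested against 0.3 in place of 0, only Psme1 and Psme4 passed of the 46 members, and 9.83% of all genes passed. Of the 20 called members 15 differed by less than the largest shift of the antigenomic background probes, 0.29, which was upward. Of the 15 that fell, 5 differed by less than the median shift of the positive control probe sets, -0.15, and 12 differed by less than that of the negative control probe sets, -0.26. How many members are called lower depended on the scaling: median centring left 9 lower and 5 higher, and centring on the positive controls gave 6 lower and 15 higher.

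**Figure D1:**
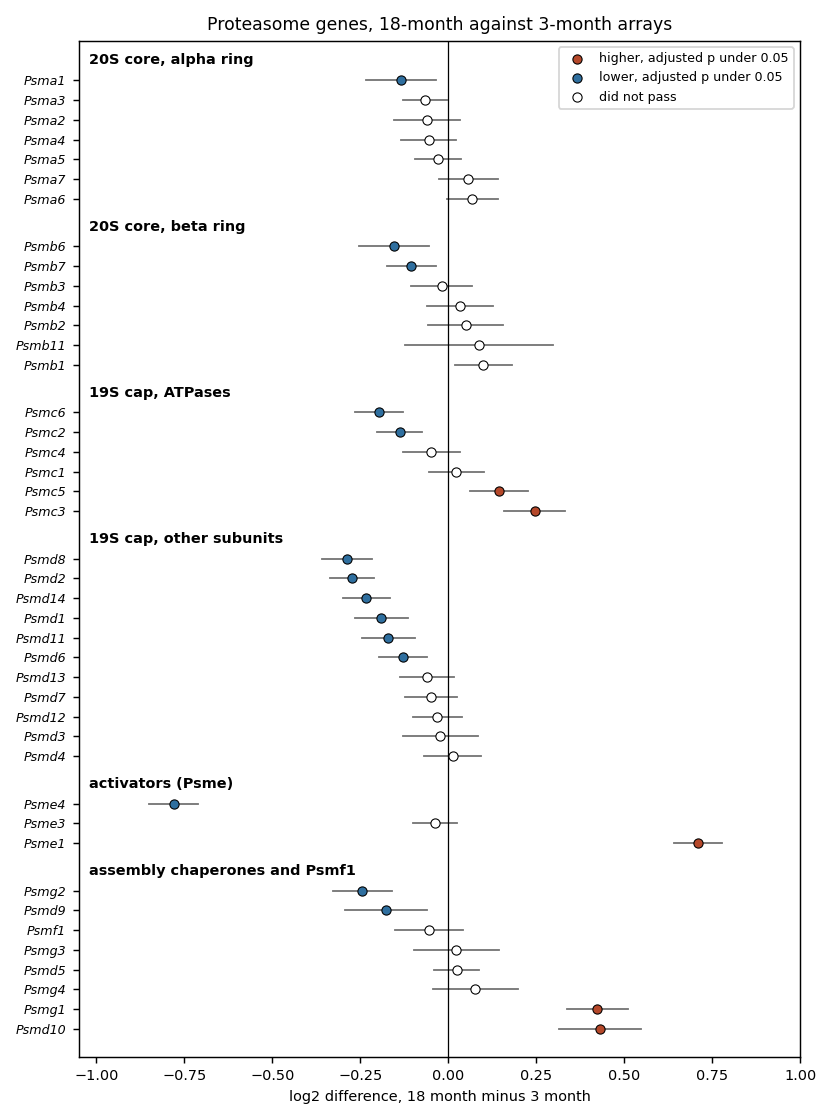
Log2 difference, 18 month minus 3 month, of the 42 tested genes that encode a proteasome part, by class, with the 95% confidence interval of the limma fit (3 arrays per age). Filled points passed the test. Most genes lie within 0.3 of 0, Psme1 at 0.71 and Psme4 at -0.78 lie apart, and the cap subunits outside the ATPase ring lie mostly left of 0.

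Core genes differed little between the ages. Of its 14 tested genes 3 fell and 11 did not pass, with a median difference of -0.02 and a range of -0.15 to 0.10. That is 21.4% lower, beside 22.1% of all genes and 36.1% of genes above the negative control range. Of the beta genes, Psmb6, which encodes the caspase-like cutting subunit, had values of 9.51, 9.50 and 9.54 in 18-month arrays, against 9.77, 9.61 and 9.63 in 3-month arrays. The groups did not overlap, and the 3-month arrays spread more widely than the 18-month arrays. Psmb6 fell by 0.15 (limma, adjusted p = 0.0206). Psmb7, the trypsin-like cutting subunit, had 10.80, 10.85 and 10.88 in 18-month arrays, against 10.94, 10.95 and 10.95 in 3-month arrays. It fell by 0.11 (limma, adjusted p = 0.0221), with all 18-month arrays below all 3-month arrays. Psmb1, a structural beta subunit, leaned the other way, at 11.11, 11.11 and 11.14 in 18-month arrays, against 11.09, 11.01 and 10.97 in 3-month arrays, and narrowly did not pass (limma, difference 0.10, adjusted p = 0.0507). It passed after quantile normalization, centring on the positive controls, with the lower 70% of probe sets left out and without 3-month replicate 1.

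The structural beta genes Psmb2, Psmb3 and Psmb4 had differences of 0.05, -0.02 and 0.03 on the log2 scale and did not pass, and their 95% confidence intervals lay within -0.11 and 0.16. Psmb11, the beta subunit of the thymus cortex, was within the negative control range at 5.92 ± 0.18 in 18-month and 5.83 ± 0.07 in 3-month cells (SD, n = 3 each).

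In the alpha ring, 1 of 7 tested genes fell and none rose. Psma1 had 8.86, 8.84 and 8.81 in 18-month arrays, against 9.06, 8.94 and 8.91 in 3-month arrays, and fell by 0.13 (limma, adjusted p = 0.0366). The groups lay close together without overlap. Psma3 had 10.13, 10.12 and 10.14 in 18-month arrays, against 10.18, 10.18 and 10.22 in 3-month arrays. That is a difference of -0.07 with no overlap, and it did not pass (limma, adjusted p = 0.0927). Psma6 was at 9.74, 9.70 and 9.74 in 18-month arrays, against 9.69, 9.67 and 9.62 in 3-month arrays, and did not pass (limma, difference 0.07, adjusted p = 0.131). Psma2, Psma4, Psma5 and Psma7 had differences of -0.06, -0.06, -0.03 and 0.06, none past the test. Psma8, the alpha subunit of the testis, was dim at 4.96 ± 0.04 in 18-month and 4.88 ± 0.07 in 3-month cells (SD, n = 3 each).

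The 3 falls in the core depended on the scaling and on single arrays. None of the 3 passed under median centring or centring on the positive controls. Centring on the positive controls gave 5 core genes higher, Psma6, Psma7, Psmb1, Psmb2 and Psmb4, where 29.4% of all genes were higher. Quantile normalization gave 3 higher, Psma6, Psma7 and Psmb1, where 18.7% of all genes were higher. Without 18-month replicate 1, or without 18-month replicate 2, none of the 3 falls passed either, and without 3-month replicate 2 Psma1 and Psmb7 did not.

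In the 19S cap 8 of 17 genes fell and 2 rose, with a median difference of -0.06 on the log2 scale. That is 47.1% lower and 11.8% higher, beside 22.1% and 18.4% of all genes and 36.1% and 22.9% of genes above the negative control range. Centring on the positive controls gave 4 lower and 4 higher, with Psmc1 and Psmd4 added to those higher. Under that centring 14.3% of all genes were lower and 29.4% higher. The ATPase ring was split: Psmc6 and Psmc2 fell, Psmc3 and Psmc5 rose, and Psmc1 and Psmc4 did not pass at differences of 0.02 and -0.05. Psmc6 had 11.10, 11.07 and 11.05 in 18-month arrays, against 11.24, 11.27 and 11.30 in 3-month arrays, and fell by 0.20 (limma, adjusted p = 0.000682). Psmc3 had 9.68, 9.71 and 9.67 in 18-month arrays, against 9.49, 9.47 and 9.37 in 3-month arrays, and was 1.19-fold higher (limma, difference 0.25, adjusted p = 0.000819). Neither gene's groups overlapped, so neighbours in 1 ring of the complex moved in opposite directions by a little. The difference of Psmc3 exceeded that of Psmc6 by 0.44 (exact two-sided permutation test, p = 0.1, the smallest these groups allow; Benjamini-Hochberg adjusted over 5 such pairs, chosen after their values were seen, 0.1).

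Psmc2 had 10.76, 10.73 and 10.70 in 18-month arrays, against 10.86, 10.86 and 10.87 in 3-month arrays, and fell by 0.14 (limma, adjusted p = 0.00364). Psmc5 had 9.79, 9.77 and 9.77 in 18-month arrays, against 9.68, 9.64 and 9.57 in 3-month arrays. It rose by 0.14 (limma, adjusted p = 0.0109), a call that was lost without 18-month replicate 1. Under centring on the positive controls Psmc2 and Psmc6 did not pass, while Psmc3 and Psmc5 did.

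Of the 11 other cap subunits 6 fell, none rose and 5 did not pass. Their median difference was -0.13. The share lower was 54.55%, beside 22.1% of all genes and 36.1% of genes above the negative control range. This count too depended on the scaling. Centring on the positive controls gave 4 lower and 1 higher, Psmd4, where 14.3% of all genes were lower and 29.4% higher. The test against a difference of 0.3 left 0 lower, where 9.83% of all genes passed in either direction. The 6 that fell include the largest scaffold subunits, lid subunits and the deubiquitinase. Psmd8, a lid subunit, had 10.53, 10.46 and 10.49 in 18-month arrays, against 10.82, 10.77 and 10.76 in 3-month arrays, and was 1.22-fold lower (limma, difference -0.29, adjusted p = 8.89e-05). Psmd2, a scaffold subunit on which substrate carriers dock, had 10.90, 10.87 and 10.92 in 18-month arrays, against 11.17, 11.19 and 11.15 in 3-month arrays, and was 1.21-fold lower (limma, difference -0.27, adjusted p = 6.43e-05). In both genes every 18-month array lay below every 3-month array by several times the spread within an age.

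Psmd14, the enzyme that cuts ubiquitin chains off the substrate, had 9.25, 9.25 and 9.24 in 18-month arrays, against 9.49, 9.46 and 9.48 in 3-month arrays. It was 1.17-fold lower, with no overlap (limma, difference -0.23, adjusted p = 0.000231). The other scaffold subunit, Psmd1, fell by 0.19 (limma, adjusted p = 0.00157), and the lid subunits Psmd11 and Psmd6 fell, with differences of -0.17 and -0.13 (limma, adjusted p = 0.00281 and 0.00767). Psmd7, the inactive partner of Psmd14, and the lid subunits Psmd3, Psmd12 and Psmd13 had differences of -0.05, -0.02, -0.03 and -0.06 and did not pass. Psmd4, a ubiquitin receptor, did not pass either (limma, difference 0.01, adjusted p = 0.818, 95% confidence interval -0.07 to 0.09), but passed as higher under centring on the positive controls. Psmd1, Psmd2, Psmd8 and Psmd14 passed under every alternative tried except the test against a difference of 0.3. Psmd6 was lost under both centrings and without 18-month replicate 2, and Psmd11 was lost under centring on the positive controls.

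The 3 measured activator genes went 3 ways. Psme4 encodes PA200, a nuclear activator known for the degradation of acetylated histones. It had 9.08, 9.04 and 9.03 in 18-month arrays, against 9.81, 9.84 and 9.84 in 3-month arrays, and was 1.72-fold lower (limma, difference -0.78, 95% confidence interval -0.85 to -0.71, adjusted p = 1.88e-07). Psme1 encodes the alpha subunit of PA28, the interferon-inducible cytosolic activator. It had 9.81, 9.82 and 9.86 in 18-month arrays, against 9.11, 9.13 and 9.12 in 3-month arrays, and was 1.63-fold higher (limma, difference 0.71, 95% confidence interval 0.64 to 0.78, adjusted p = 3.06e-07). In both genes the gap between the ages was many times the spread within an age, and both passed in all 17 alternatives tried.

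Psme3 encodes the nuclear PA28 gamma. It was at 11.01, 11.00 and 10.98 in 18-month arrays, against 11.03, 11.02 and 11.06 in 3-month arrays, and did not pass (limma, difference -0.04, 95% confidence interval -0.10 to 0.02, adjusted p = 0.321). The ages did not overlap but lay close together. The difference of Psme1 exceeded that of Psme4 by 1.49 and that of Psme3 by 0.75 (exact two-sided permutation test, p = 0.1 for each, the smallest these groups allow, and 0.1 adjusted over the 5 pairs). Both pairs were chosen after their values were seen, so this test adds no support.

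All 3 catalytic immunoproteasome genes rose, beside 18.4% of all genes and 22.9% of genes above the negative control range. Psmb10 had 9.83, 9.75 and 9.85 in 18-month arrays, against 8.44, 8.40 and 8.28 in 3-month arrays, and was 2.71-fold higher. Psmb8 had 9.30, 9.40 and 9.35 in 18-month arrays, against 7.36, 7.35 and 7.54 in 3-month arrays, which lie within the negative control range. Psmb9 had 6.93, 6.96 and 6.97 in 18-month arrays, against 6.16, 6.18 and 6.25 in 3-month arrays, within that range at both ages. No size is given for these 2 genes. In the assembled core Psmb10 takes the place of Psmb7, and Psmb9 that of Psmb6. Psmb7 and Psmb6 fell, with differences of -0.105 and -0.15, and both calls were lost under both centrings. These are RNA values, and the make-up of the assembled core was not tested. The difference of Psmb10 exceeded that of Psmb7 by 1.54 (exact two-sided permutation test, p = 0.1, the smallest these groups allow, and 0.1 adjusted over the 5 pairs). This pair too was chosen after its values were seen, so the test adds no support.

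**Figure D2:**
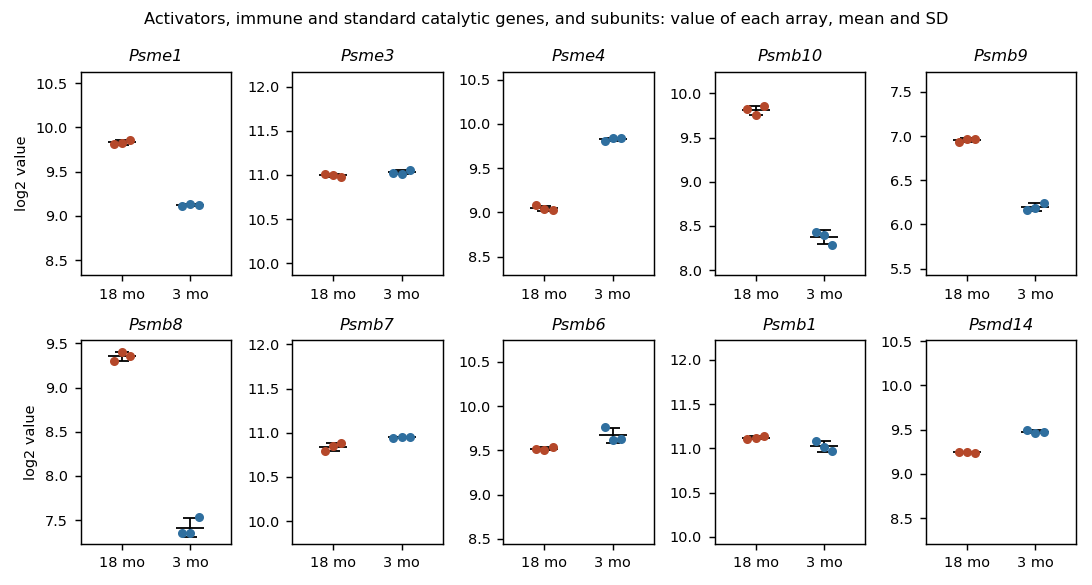
Log2 value of each array for the activators, the immunoproteasome genes, the standard cutting subunits Psmb7 and Psmb6, and the subunits Psmb1 and Psmd14, with the mean and SD of 3 arrays per age; every panel spans the same range of log2 units, and levels of different panels are not comparable. Psme1, Psmb10, Psmb9 and Psmb8 are higher and Psme4 is lower in 18-month arrays by far more than the spread, while Psme3, Psmb7, Psmb6 and Psmb1 lie close together.

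Among the assembly factors 2 rose, 2 fell and 4 did not pass, with a median difference of 0.02 on the log2 scale. That is 25% higher and 25% lower, beside 18.4% and 22.1% of all genes and 22.9% and 36.1% of genes above the negative control range. Psmg1 and Psmg2 encode the partners of 1 heterodimer that helps to form the alpha ring, and they moved in opposite directions. Psmg1 had 8.85, 8.95 and 8.94 in 18-month arrays, against 8.51, 8.48 and 8.48 in 3-month arrays, and was 1.34-fold higher (limma, difference 0.42, adjusted p = 3.01e-05). Psmg2 had 9.47, 9.38 and 9.44 in 18-month arrays, against 9.72, 9.65 and 9.65 in 3-month arrays, and was 1.18-fold lower (limma, difference -0.24, adjusted p = 0.000653). In neither gene did the ages overlap. The partners of the second such heterodimer, Psmg3 and Psmg4, had differences of 0.02 and 0.08 and did not pass, and Psmg3 lay within the negative control range.

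Of the chaperones of the ATPase ring, Psmd10, which encodes gankyrin, also known as a regulator of p53 and of the retinoblastoma protein, had 9.07, 9.04 and 9.10 in 18-month arrays, against 8.74, 8.62 and 8.55 in 3-month arrays. It was 1.35-fold higher (limma, difference 0.43, adjusted p = 0.00016), and its 3-month arrays spread more widely. Psmd9 fell by 0.18 (limma, adjusted p = 0.0227). Its values of 7.80, 7.90 and 7.83 in 18-month arrays, against 8.06, 8.07 and 7.93 in 3-month arrays, lay just above the negative control range, and the call was lost under both centrings, in the equal-variance test per gene, and without 18-month replicate 1, without 18-month replicate 3 or without 3-month replicate 2. Psmd5 had a difference of 0.02 and did not pass. Psmf1, the proteasome inhibitor PI31, was near the upper end of the negative controls at 7.56 ± 0.04 in 18-month and 7.62 ± 0.04 in 3-month cells (SD, n = 3 each) and did not pass (limma, adjusted p = 0.366).

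**Figure D3:**
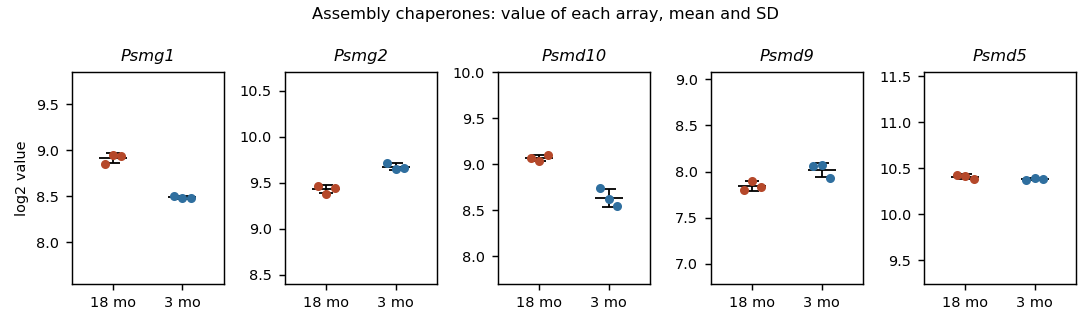
Log2 value of each array for 5 assembly chaperone genes, with the mean and SD of 3 arrays per age; every panel spans the same range of log2 units. Psmg1 and Psmd10 are higher, Psmg2 and Psmd9 are lower and Psmd5 differs by 0.02 in 18-month arrays.

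Of the 4 members that encode no part of the complex, Psme3ip1 was lower by 0.10 and narrowly passed (limma, adjusted p = 0.0462), and its call was lost in 12 of 17 alternatives, 5 of them the leaving out of any 1 array except 3-month replicate 3. Psmc3ip did not pass (limma, difference 0.12, adjusted p = 0.0943) and lay within the negative control range. The pseudogenes Psmb5-ps and Psmb6-ps did not pass, at differences of -0.04 and -0.05; their probe sets may also read the transcripts they derive from, so these values are uncertain.

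Most measured genes in a list of receptors and enzymes that work with the proteasome fell. Of the 14 genes listed 12 were measured, of which 11 fell and 1 rose, with a median difference of -0.34 on the log2 scale. That is 91.7% lower and 8.33% higher, beside 22.1% and 18.4% of all genes and 36.1% and 22.9% of genes above the negative control range. The list was chosen with earlier results of these data known. Vcp, the unfoldase that extracts ubiquitin-tagged proteins from membranes and complexes, had 11.05, 11.03 and 11.04 in 18-month arrays, against 11.50, 11.50 and 11.51 in 3-month arrays (limma, difference -0.46, adjusted p = 1.33e-06). Its groups were far apart relative to their spread. The deubiquitinases of the cap, Uchl5 and Usp14, fell, with differences of -0.47 and -0.20 on the log2 scale. The shuttle genes Ubqln1, Ubqln2, Ubqln4 and Rad23b, whose proteins carry ubiquitin-tagged substrates to the cap, all fell, with differences of -0.38, -0.40, -0.39 and -0.15.

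Zfand5 and Zfand2a, which encode zinc finger proteins that bind the proteasome, fell, with differences of -0.58 and -0.30. Txnl1, a thioredoxin-like protein of the cap, and Ube3c, a ubiquitin ligase that works at the proteasome, fell, with differences of -0.28 and -0.14. The gene that rose was Ngly1, the glycanase that activates NFE2L1, at 8.02, 7.98 and 7.96 in 18-month arrays, against 7.40, 7.45 and 7.32 in 3-month arrays, which lie within the negative control range. Centring on the positive controls left 7 of the 11 falls, with Usp14, Ube3c, Txnl1 and Rad23b lost. Under that centring 14.3% of all genes were lower. The test against a difference of 0.3 left 3 falls, where 9.83% of all genes passed in either direction.

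Of the other parts and carriers 4 of 6 were measured. Of these 2 fell, or 50%, beside 22.1% of all genes and 36.1% of genes above the negative control range. Akirin2, which carries proteasomes into the nucleus in human cells, had 8.88, 8.94 and 8.88 in 18-month arrays, against 9.51, 9.42 and 9.41 in 3-month arrays, and was lower by 0.55 on the log2 scale with no overlap (limma, adjusted p = 7.8e-06). Ecpas, a scaffold that binds core and cap, fell by 0.38 on the log2 scale. Sem1, a small cap subunit, and Pomp, the maturation factor of the core, had differences of -0.05 and -0.05 and did not pass (limma, adjusted p = 0.195 and 0.406).

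**Figure D4:**
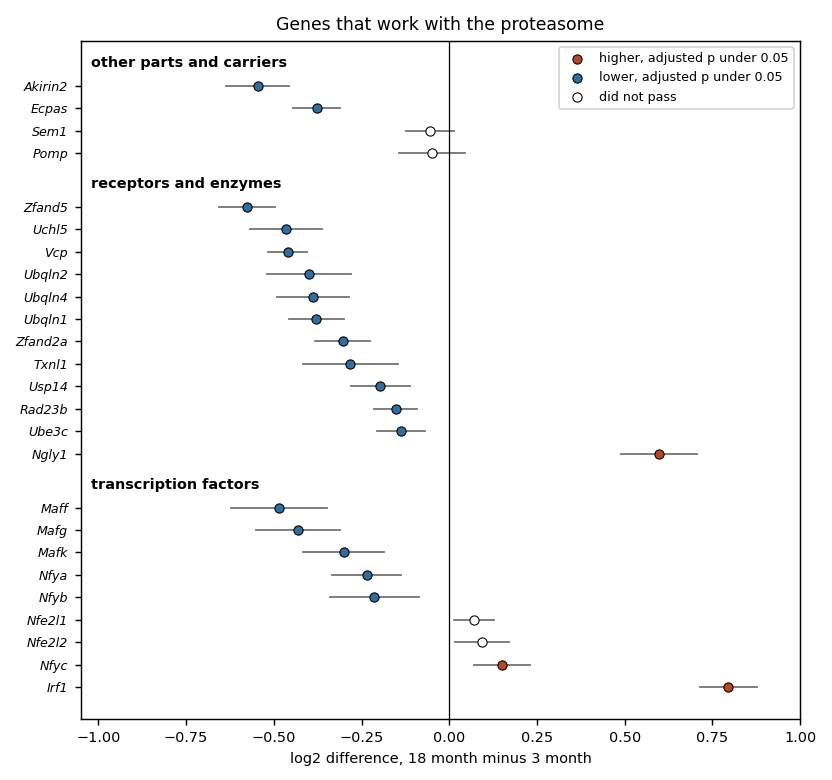
Log2 difference, 18 month minus 3 month, of genes that work with the proteasome, with the 95% confidence interval of the limma fit (3 arrays per age). Filled points passed the test. In the receptors and enzymes 11 of 12 genes lie left of 0, and Ngly1 lies right of 0.

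Of 9 measured transcription factors of proteasome genes 5 fell and 2 rose. That is 55.6% lower and 22.2% higher, beside 22.1% and 18.4% of all genes and 36.1% and 22.9% of genes above the negative control range. The test against a difference of 0.3 left 0 lower and 1 higher, Irf1. Nfe2l1 had 11.38, 11.36 and 11.38 in 18-month arrays, against 11.31, 11.30 and 11.29 in 3-month arrays, and narrowly did not pass (limma, difference 0.07, adjusted p = 0.0513), nor did the related Nfe2l2 (difference 0.09, adjusted p = 0.0592). Both passed after quantile normalization, centring on the positive controls, with the lower 70% of probe sets left out and without 3-month replicate 1. Their partner genes Mafg, Maff and Mafk, small proteins that pair with them on DNA, fell, with differences of -0.43, -0.48 and -0.30. Of the subunits of NF-Y, which binds CCAAT boxes, Nfya and Nfyb fell, with differences of -0.24 and -0.21, and Nfyc rose by 0.15, and Nfyb was lost without 18-month replicate 2, under centring on the positive controls and in the equal-variance test per gene. Irf1, an interferon-induced factor that activates immunoproteasome genes, had 9.12, 9.13 and 9.11 in 18-month arrays, against 8.36, 8.33 and 8.27 in 3-month arrays, and was 1.74-fold higher (limma, adjusted p = 4.34e-07).

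Promoter windows were given for 35 of the 43 genes that encode a proteasome part. The antioxidant response element matched in 5 of 35, or 14.3%, beside 14.0% of all 27025 genes with a window. Of these 5 genes Psme4, Psmb6, Psmc6 and Psmd9 fell and Psmd12 did not pass. The share lower was 33.3% of the 42 tested genes that encode a proteasome part. It was 22.1% of all genes and 36.1% of genes above the negative control range. The calls of Psmb6 and Psmd9 were lost under both centrings. The CCAAT box matched in 13 of 35 members, or 37.1%, beside 41.1% of all genes, and in 7 of the 11 core genes with a window. The interferon-stimulated element matched in 5 of 35 members, or 14.3%, beside 3.99% of all genes: Psme1 rose, Psmd9 fell, and Psmb3, Psmd4 and Psmg4 did not pass. The gamma-activated site matched in 2 of 35 members, or 5.71%, beside 9.55% of all genes: Psmd2 fell and Psmg1 rose. It also matched in Psmb8 of the immunoproteasome. The interferon-stimulated element was in none of the windows of Psmb8, Psmb9 and Psmb10, which says only that these letters are not in those windows. The matches are descriptions and were not tested.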

How the data were processed

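Gene expression was measured in 6 samples of sorted, cultured bone marrow stromal cells on Affymetrix arrays of biotin-labelled cRNA, per the labels' protocols. The authors deposited log2 values, 1 per probe set and array, which were not scaled further. MAS5 appears in the submitters' processing notes without a version; which background correction, scaling and summary were applied is not stated in the labels.

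Of 72688 probe sets, 65956 are transcript clusters. Symbols of the platform annotation were updated through the RefSeq table of assembly GRCm38.p6: 31258 probe sets had 1 gene, 1492 several, and 33206 transcript clusters none listed. The brightest probe set was kept for each of 30702 genes, of which 30700 matched the RefSeq table. Genes with a mean under 5.40, the median of all transcript clusters, were left out, which kept 20187. Coordinates of probe sets are left out because no source used here names the build of the array; those printed are of RefSeq promoter windows.

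Ages were compared with limma 3.58.1 (lmFit, eBayes with an intensity trend) in R 4.3.3, with Benjamini-Hochberg adjustment over all genes tested. A fold is the unlogged difference and is left out where a mean lay within the negative control range. Motifs were searched as letters on both strands, counting a gene once over all its windows. Figures were drawn with matplotlib 3.10.9. The gene test was tested on simulated data. Members, classes and lists were chosen with earlier results of these data known. Named with every array's value were the 3 members of each class with the smallest p, the measured cutting subunits, all Psme genes and the calls against their class's direction; a few others, the 5 gene pairs (1 not given, since Psmb9 lay within the negative control range) and the split at the negative control range were added after values were seen. Of the remaining members differences are given. Ubiquitin genes and others without a probe set of their own were not analysed here. Alternatives were scaling, filter, probe set choice, variance model, the replicate number as a block, a minimum difference of 0.3 and each array left out in turn.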

Additional observations from a re-analysis of the deposited data

How the results depend on the processing

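The 5 counts and the median were recomputed under 17 alternatives. Median centring gave 9 members lower and 0 in the core. Centring on the positive controls, which moved the median of all genes to 0.11 on the log2 scale from 0.01, gave 6 lower, 15 higher, 0 in the core and 4 in the cap lower, and a median of 0.054. Its split over all genes was 29.4% higher and 14.3% lower, against 18.4% and 22.1% as deposited. Quantile normalization gave 8 higher, where 18.7% of all genes were higher. The test against a difference of 0.3 left 1 lower and 1 higher, with 0 lower in core and in cap. Without the intensity trend 1 core gene was lower. Leaving out each array in turn gave 10 to 16 members lower, 4 to 7 higher, 0 to 4 in the core and 7 to 8 in the cap lower, 1 activator higher, and medians of -0.05 to -0.03. The cause of these shifts was not tested. The replicate number as a block gave 13 lower and 5 higher, with Psmb7 and Psme3ip1 lost. The labels do not say if same-numbered arrays of the 2 ages share more than a number. The correlations of their deviations were -0.05, 0.07 and 0.02.

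Of 779 pairs of a member and an alternative, 670 kept direction and side of the threshold, and 26 changed sign, all of them small; Sem1, Pomp and Ube2d3 outside the members are given with them. Under centring on the positive controls the differences became 0.037 for Psma2, 0.032 for Psma3, 0.042 for Psma4, 0.068 for Psma5, 0.079 for Psmb3, 0.058 for Psmb5-ps, 0.048 for Psmb6-ps, 0.050 for Psmc4, 0.067 for Psmd12, 0.037 for Psmd13, 0.075 for Psmd3, 0.048 for Psmd7, 0.060 for Psme3, 0.0014 for Psme3ip1, 0.043 for Psmf1, 0.043 for Sem1, 0.049 for Pomp and 0.096 for Ube2d3. Quantile normalization gave 0.0024 for Psmb3, 0.0046 for Psmd3, 0.011 for Psme3 and 0.022 for Ube2d3. Median centring gave 0.0014 for Psmb3 and 0.018 for Ube2d3. Leaving out each array in turn gave -0.048 to 0.0086 for Psmb3, -0.0032 to 0.064 for Psmb4, -0.089 to 0.015 for Psmb5-ps, -0.0040 to 0.039 for Psmc1, -0.063 to 0.022 for Psmd3, -0.0078 to 0.040 for Psmd4, -0.0021 to 0.046 for Psmg3 and -0.017 to 0.010 for Ube2d3. None of the changed signs passed in its setting. Signal limits Psma8, Psmb11, Psmg3, Psmc3ip and Psmb6-ps, whose means lie within the negative control range at both ages, and Psmf1, whose mean does at 18 months.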

Other observations

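Of the ubiquitin list, 2 of 8 genes had a probe set of their own. Of these 1 fell, beside 22.1% of all genes and 36.1% of genes above the negative control range. Uba6, the activating enzyme that loads ubiquitin and the ubiquitin-like FAT10, had 9.11, 9.12 and 9.04 in 18-month arrays, against 9.70, 9.71 and 9.75 in 3-month arrays, and was 1.55-fold lower (limma, difference -0.63, adjusted p = 1.66e-06), with no overlap. It passed in all 17 alternatives. Ube2d3, a conjugating enzyme, was at 9.47 ± 0.02 in 18-month and 9.47 ± 0.03 in 3-month cells (SD, n = 3 each) and did not pass (limma, adjusted p = 0.977).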
